A study of Mus musculus with 15 samples.

Results

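The genes that make cholesterol and control its uptake and export were examined in the foetal mouse brain. The group held 26 genes, listed by name for their roles in the pathway and found in the count table by Entrez identifier, out of 23132 genes kept in the table. It comprised 18 enzymes of sterol synthesis (7 of the mevalonate segment, 3 that build lanosterol from farnesyl diphosphate and 8 that convert lanosterol to cholesterol), 5 regulators around the sterol regulatory element binding proteins (SREBP) and 3 transporters. The listing used no threshold on measured values.

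RNA sequencing had been performed on male foetuses of the C57BL/6 strain in 2 settings. Cerebral cortex was dissected at E15.5 and used directly, from 3 *Phf6*+/Y controls and from 5 *Phf6*–/Y foetuses with a germline deletion of *Phf6*, the X-linked gene mutated in Börjeson-Forssman-Lehmann syndrome. Cortical neurons were dissociated at E16.5 and cultured for 24 h in a medium holding insulin, progesterone, albumin and a little foetal calf serum, from 3 *Phf6*+/Y;*Nes-cre*Tg/+ controls and from 4 foetuses of the genotype *Phf6*lox/Y;*Nes-cre*Tg/+, in which Cre driven by a nestin promoter deletes *Phf6* in neural precursors and their descendants. The culture controls thus carried the *Nes-cre* transgene, which the cortex controls did not, and the deletion differed between the settings (germline in the cortex, neural in the culture). Tissue, foetal stage, *Nes-cre*, enzymatic dissociation and time in culture changed together and cannot be told apart in any difference between culture and cortex.

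Cholesterol does not cross from the blood into the brain, so the developing brain makes its own. Acetyl-CoA is built up to mevalonate, isoprenoids, squalene, lanosterol and then cholesterol. When membrane sterol falls, SCAP escorts the SREBP precursors from the endoplasmic reticulum to the Golgi, where they are cleaved into transcription factors that raise synthesis and uptake genes, while the INSIG proteins hold SCAP back when sterol is plentiful. When sterol and its oxidised derivatives accumulate, the nuclear receptors of the LXR family raise exporters of the ABC family. Neurons are thought to make sterol early in development and to lean on glial supply later.

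Promoter sequence bears on these genes because SREBPs are known to act together with the factors NF-Y and Sp1 near the start of sterol genes. RefSeq windows of GRCm38.p6, from 250 bases before to 50 bases after a gene's start, existed for 21 of the 26 genes (29 windows, since 5 genes had several). Both strands were searched for the SREBP element TCACNCCAC (SRE), the NF-Y box CCAAT, the Sp1 box GGGCGG, the E-box CACGTG and the nuclear receptor half-site AGGTCA. The NF-Y box lay in a window of 18 of the 21 genes, and in 19 of the 29 windows against 37.4% of all 32851 windows in the genome. The genes without it were *Acat2*, *Scap* and *Abca1*. The Sp1 box lay in 24 of the 29 windows against 35.7% of all. The E-box was found in 7 windows (7.15% of all windows held it) and the half-site in 5 (16.3%), and at *Insig1* these overlapped. The SRE was found once, at *Hmgcs1*, 137 bases before the start, against 1.24% of all windows. Such a match describes the letters of the window and is not evidence of binding. The lines give the 250 bases before the start of the 3 genes with the strongest test for a higher level in culture and of the gene with the strongest test for a lower level, among genes with a match, and of *Hmgcs1*, added for its SRE after the matches had been seen. Each is written 5′ to 3′ on the strand of the gene, and the capitals mark the SRE, NF-Y and Sp1 matches on either strand (ATTGG and CCGCCC are NF-Y and Sp1 boxes read on the opposite strand). *Sc5d* is taken from chr9:42264301-42264550 (minus strand), *Msmo1* from chr8:64733579-64733828 (minus), *Insig1* from chr5:28071162-28071411 (plus), *Srebf1* from chr11:60210472-60210721 (minus, of its 3 windows the one with most marked matches before the start) and *Hmgcs1* from chr13:119690101-119690350 (plus).
Sc5d: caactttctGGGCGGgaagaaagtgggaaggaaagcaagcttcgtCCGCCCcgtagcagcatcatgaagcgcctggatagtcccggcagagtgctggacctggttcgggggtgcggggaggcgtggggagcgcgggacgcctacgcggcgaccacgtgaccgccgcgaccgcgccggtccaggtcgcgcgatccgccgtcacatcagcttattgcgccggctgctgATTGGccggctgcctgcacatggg
Msmo1: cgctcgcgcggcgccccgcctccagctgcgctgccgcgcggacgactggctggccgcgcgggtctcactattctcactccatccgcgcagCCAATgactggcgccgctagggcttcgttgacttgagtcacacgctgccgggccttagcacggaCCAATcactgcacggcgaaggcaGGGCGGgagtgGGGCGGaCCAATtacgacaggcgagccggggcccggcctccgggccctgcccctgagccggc
Insig1: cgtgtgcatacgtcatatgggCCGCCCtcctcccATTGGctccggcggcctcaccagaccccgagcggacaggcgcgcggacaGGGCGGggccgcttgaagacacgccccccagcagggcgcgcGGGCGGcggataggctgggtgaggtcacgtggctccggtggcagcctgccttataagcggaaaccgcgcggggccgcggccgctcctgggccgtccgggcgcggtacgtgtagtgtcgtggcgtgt
Srebf1: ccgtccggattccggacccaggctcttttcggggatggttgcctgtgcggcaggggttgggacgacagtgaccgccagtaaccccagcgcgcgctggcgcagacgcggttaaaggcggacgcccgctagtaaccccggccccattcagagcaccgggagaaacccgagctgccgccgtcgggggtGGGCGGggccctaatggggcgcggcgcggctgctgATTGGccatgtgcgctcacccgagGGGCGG
Hmgcs1: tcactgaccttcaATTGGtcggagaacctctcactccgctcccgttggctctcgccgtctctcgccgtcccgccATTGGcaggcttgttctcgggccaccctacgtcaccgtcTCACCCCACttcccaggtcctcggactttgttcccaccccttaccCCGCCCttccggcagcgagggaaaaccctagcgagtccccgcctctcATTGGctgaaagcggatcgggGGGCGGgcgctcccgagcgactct
In these lines *Msmo1*, *Sc5d*, *Insig1* and *Hmgcs1* each carry both NF-Y and Sp1 boxes. *Srebf1*, the only gene shown that was lower in culture, carries both as well in the window printed, which was chosen for having most matches. Its other windows held either an NF-Y box or Sp1 boxes. Of the other genes lower in culture, *Abca1* had no NF-Y box and *Abcg1* had no window. These lines therefore cannot tell whether the boxes differ between genes by direction.

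**Figure D1:**
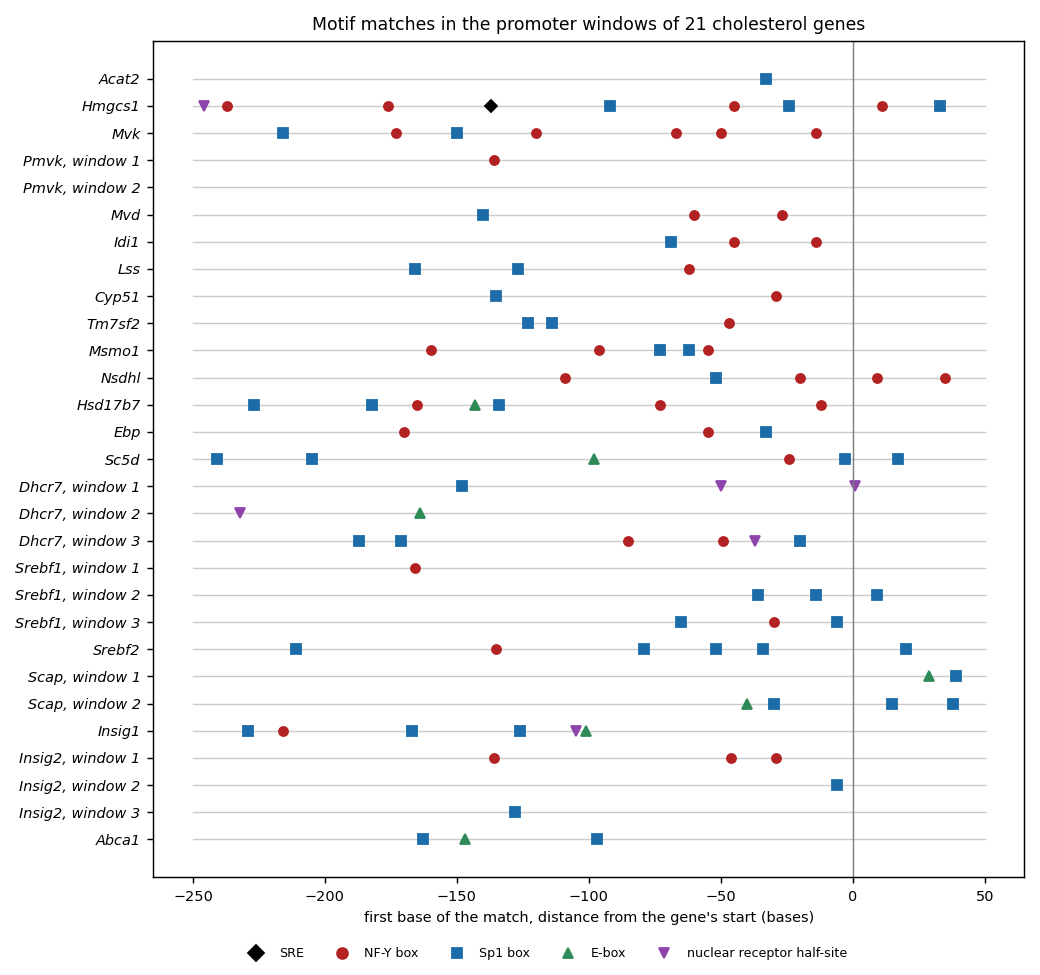
Matches of 5 motifs in the 29 promoter windows of 21 cholesterol genes. The horizontal axis is the distance of the first base of a match from the gene's start in bases, and each grey line is 1 window. NF-Y boxes appear in windows of 18 genes, most of them within the last 250 bases before the start, and the single SRE lies at -137 in *Hmgcs1*.

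Counts per library ranged from 16858007 to 31157700 (all 15 libraries), and the 26 genes had between 57 and 42179 reads in a library, so that all were measured and all passed the filter on low counts in each comparison. *Phf6*, counted over the whole gene, was at 149 to 191 CPM (counts scaled by TMM to a common library size) in control and 42.4 to 55.2 CPM in deleted cortex, and at 228 to 259 against 59.9 to 85.8 CPM in culture. The deletion removes exons 4 and 5 alone, so this count includes the exons that remain. The study reported that PHF6 protein was absent from deleted E15.5 brain. Among controls, 7 of 9 neuronal markers were higher and 2 lower in culture, with a summed level of 9830 to 11000 CPM against 6370 to 7000 CPM in cortex. Markers of radial glia (9 of 9 lower, 458 to 621 against 1590 to 1610 CPM), of dividing cells (6 of 6 lower, 243 to 410 against 990 to 1200 CPM) and of endothelial and mural cells (10 of 10 lower, 7.80 to 10.3 against 244 to 288 CPM, with *Cldn5* at 0 in all 3 control cultures) moved the other way. Astrocyte and oligodendrocyte precursor markers (5 of 8 tested lower, 1 higher) summed to 32.3 to 49.0 CPM against 103 to 113 CPM, and microglial markers (5 of 8 lower) to 22.4 to 27 CPM against 44.5 to 72.9 CPM. Erythroid markers (4 of 4 tested lower) were at 13.5 to 32.2 CPM against 232 to 304 CPM, and of meningeal and choroid plexus markers 2 of 6 and 1 of 3 tested were lower. In deleted libraries the sums were likewise 10400 to 11100 against 5330 to 7250 CPM for neuronal, 427 to 571 against 1330 to 1630 CPM for radial glial and 10.5 to 14.8 against 220 to 431 CPM for endothelial and mural markers. The part of these shifts in the results below was not tested, and in such bulk samples fewer cells of a type and less RNA per cell cannot be told apart. Among the cortices, the deleted replicate 4 had the highest sums of meningeal markers (535 CPM, against 16.6 to 277 CPM in the other 7) and of endothelial markers (431 against 220 to 293 CPM), and results that rest on it are given also without it.

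In control cultures the sterol synthesis enzymes were higher than in control cortex along almost the whole pathway. Of the 18 enzymes, 16 rose, by 1.37-fold to 2.87-fold, and *Mvk* and *Ebp* did not pass the test. The summed level of the 18 enzymes was 1690 ± 60.4 CPM (SD, n = 3) in cortex and 3800 ± 246 CPM (SD, n = 3) in culture. Among all 26 genes, 20 were higher, while 24.7% of the 14320 genes tested were higher in culture. The lower genes were 3 of the 26 (*Srebf1*, *Abca1* and *Abcg1*), against 26.4% of genes tested. The median log2 fold change was 0.96 over the 26 genes and -0.03 over all genes tested. Culture and cortex libraries did not overlap for 23 of the 26 genes, against 60.5% of all genes. The tests were edgeR quasi-likelihood tests with Benjamini-Hochberg adjustment over all genes tested, and a call is an adjusted p (FDR) below 0.05.

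The comparison could be made a second time, in other libraries, between deleted cultures and deleted cortex. There 20 of the 26 genes were higher, against 28% of the 14416 genes tested, and 3 were lower, against 31.1%. The groups did not overlap for 22 genes, against 48.9% of all genes. Of the called genes, 19 were higher in both comparisons and the same 3 were lower in both. Differing calls concerned *Tm7sf2*, which was higher in controls only (0.21, 95% interval -0.04 to 0.45, in the deleted libraries), and *Scap*, which was called only in the deleted libraries. The difference between these effects is the genotype-by-tissue interaction given below, which passed the test for none of the 26. The deleted and control libraries came partly from the same litters, so the second comparison was not independent at the level of the dam. Deleted cortex replicates 2 and 3 were littermates, as were replicates 4 and 5. They entered this fit as separate libraries without a litter term. With these littermates summed, 22 genes were called.

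**Figure D2:**
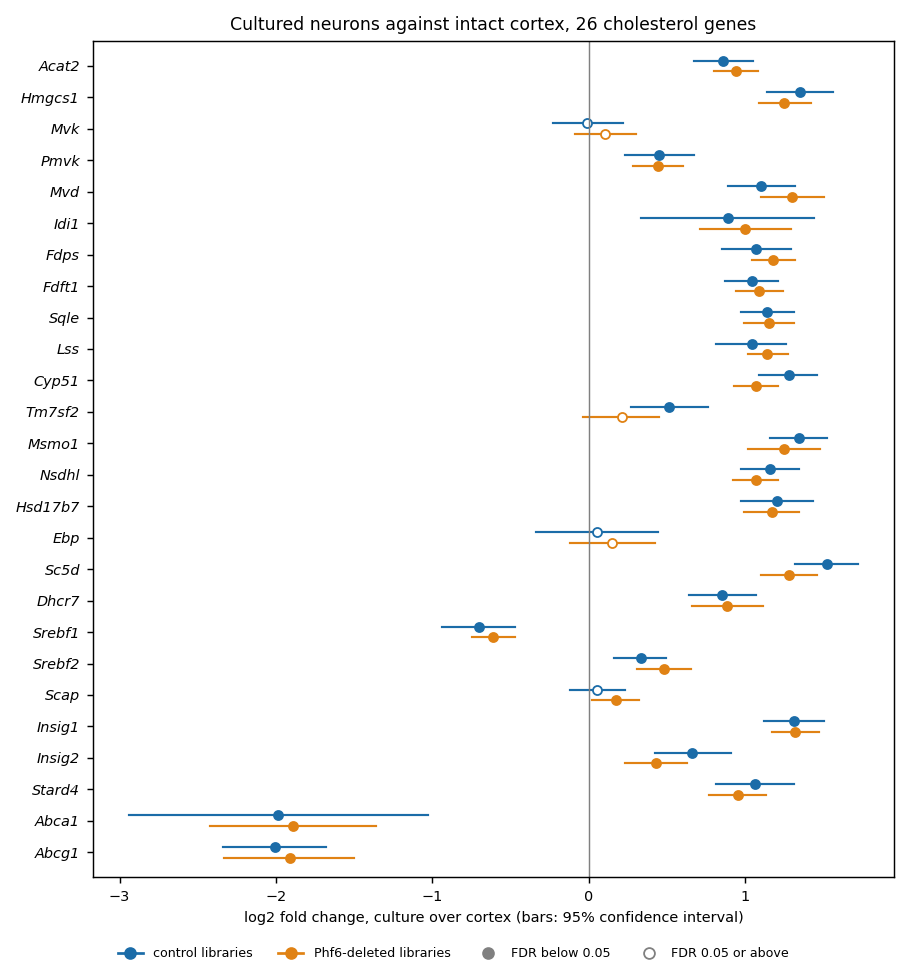
Difference between cultured neurons and intact cortex for the 26 genes in pathway order, as log2 fold change (points, positive where higher in culture) with 95% confidence interval (bars), in control libraries (3 against 3) and *Phf6*-deleted libraries (4 against 5). Filled points have FDR below 0.05. From *Acat2* to *Dhcr7* the points lie to the right of 0, except that of *Mvk* in controls (-0.01), and the open points in this stretch are those of *Mvk* and *Ebp* and that of *Tm7sf2* in deleted libraries. *Srebf1*, *Abca1* and *Abcg1* lie to the left.

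At the head of the pathway, *Hmgcs1* (Entrez 208715, chromosome 13, 119690351 to 119708260) encodes the cytosolic synthase that makes HMG-CoA. It held 514, 567 and 590 CPM in the control cortices and 1290, 1350 and 1620 CPM in the control cultures. In the deleted cortices it held 638, 625, 680, 541 and 637 CPM, and in the deleted cultures 1360, 1550, 1450 and 1610 CPM. Every culture was therefore above every cortex, in both genotypes. The rise was 2.55-fold in controls (log2 1.35, SE 0.10, FDR = 2.33e-07) and 2.38-fold in deleted libraries (log2 1.25, SE 0.08, FDR = 7.88e-08). *Acat2*, the cytosolic thiolase that supplies acetoacetyl-CoA, rose from 112 ± 11.8 to 203 ± 5.22 CPM (SD, n = 3 each). *Mvd*, the decarboxylase that yields isopentenyl diphosphate, rose 2.15-fold, and *Fdps*, which makes farnesyl diphosphate, 2.10-fold in controls.

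The kinases and the isomerase of this segment behaved unequally. *Mvk*, mevalonate kinase, was at 35.8 ± 1.76 CPM in control cortex and 35.8 ± 2.32 CPM in control culture (SD, n = 3 each), a log2 difference of -0.01 with a 95% interval of -0.23 to 0.22. A change of the size seen at *Hmgcs1* lay outside that interval. *Pmvk*, phosphomevalonate kinase, rose 1.37-fold (FDR = 0.00249). *Idi1*, the isomerase of isopentenyl diphosphate (Entrez 319554, chromosome 13, 8885606 to 8892396), had the largest standard error of the 18 enzymes. Its control cortices held 8.85, 5.98 and 10.8 CPM and its control cultures 12.4, 13.8 and 21.5 CPM. The groups did not overlap, and the rise was 1.85-fold (log2 0.89, SE 0.25, FDR = 0.0121).

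From farnesyl diphosphate to lanosterol, all 3 enzymes rose, by 2.05-fold to 2.20-fold in controls. *Fdft1*, squalene synthase (Entrez 14137, chromosome 14, 63145150 to 63181687), held 140, 132 and 147 CPM in control cortex and 286, 295 and 282 CPM in control culture. The deleted cortices gave 138, 146, 162, 132 and 130 CPM and the deleted cultures 307, 284, 317 and 303 CPM. This is a 2.06-fold rise in controls (log2 1.04, SE 0.08, FDR = 3.52e-07), with no overlap. The annotated span of *Fdft1* overlaps *Ctsb*, and without a stated strand setting shared reads cannot be assigned.

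*Sqle*, squalene epoxidase, catalyses the first oxygen-requiring and a rate-limiting step (Entrez 20775, chromosome 15, 59315092 to 59331193). Its control cortices held 174, 201 and 194 CPM and its control cultures 406, 429 and 420 CPM. Deleted cortices held 195, 211, 229, 171 and 196 CPM, and deleted cultures 453, 434, 440 and 464 CPM. The rise was 2.20-fold (log2 1.14, SE 0.08, FDR = 2.17e-07) in controls and 2.23-fold (log2 1.15, SE 0.07) in deleted libraries. *Lss*, lanosterol synthase, rose 2.05-fold in controls and 2.21-fold in deleted libraries, where it had the strongest test of the 26 genes (FDR = 2.71e-08).

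Beyond lanosterol, 7 of 8 enzymes rose in controls and 6 of 8 in deleted libraries, and the largest rise of the 26 genes in controls, that of *Sc5d*, was found here. *Sc5d*, the sterol C5 desaturase (Entrez 235293, chromosome 9, 42251592 to 42264300), held 42.9, 38.0 and 45.7 CPM in control cortex and 120, 118 and 127 CPM in control culture. Deleted cortices held 46.0, 55.0, 46.0, 44.0 and 50.9 CPM, and deleted cultures 105, 113, 134 and 120 CPM. Its rise of 2.87-fold in controls (log2 1.52, SE 0.09, FDR = 9.23e-08) was 2.43-fold in deleted libraries (log2 1.28, SE 0.08).

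*Msmo1*, the C4-methylsterol oxidase (Entrez 66234, chromosome 8, 64718123 to 64733578), acts with *Nsdhl* and *Hsd17b7* to remove the methyl groups of lanosterol. It held 69.7, 72.8 and 73.2 CPM in control cortex and 169, 191 and 187 CPM in control culture. Its deleted cortices held 83.4, 84.7, 78.4, 61.2 and 84.9 CPM, with replicate 4 apart from the rest, and its deleted cultures 153, 189, 204 and 205 CPM. The rise was 2.53-fold in controls (log2 1.34, SE 0.08, FDR = 1.03e-07) and a log2 of 1.25 in deleted libraries, or 1.17 without that replicate.

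The partners of *Msmo1* moved with it. *Nsdhl*, the sterol dehydrogenase (Entrez 18194, chromosome X, 72918521 to 72958528), was at 46.8, 43.1 and 43.4 CPM in control cortex against 98.0, 101 and 100 CPM in control culture. In deleted cortex it was at 53.4, 52.5, 54.3, 44.9 and 51.9 CPM and in deleted culture at 107, 106, 104 and 115 CPM. The rise was 2.23-fold in controls (log2 1.16, SE 0.09, FDR = 3.42e-07). *Hsd17b7*, the keto-reductase of the same complex (Entrez 15490, chromosome 1, 169949535 to 169969242), held 18.6, 18.9 and 18 CPM in control cortex and 42.4, 40.0 and 45.6 CPM in control culture. Its deleted cortices held 20.8, 18.9, 21.3, 19.8 and 20.7 CPM and its deleted cultures 39.5, 47.4, 49.3 and 46.4 CPM. Again no culture overlapped a cortex, and the rise was 2.30-fold in controls (log2 1.2, SE 0.11, FDR = 1.66e-06).

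*Cyp51*, the demethylase that opens the conversion of lanosterol (Entrez 13121, chromosome 5, 4080674 to 4104697), held 175, 171 and 192 CPM in control cortex and 401, 435 and 473 CPM in control culture. In the deleted libraries it held 225, 220, 229, 187 and 206 CPM in cortex and 427, 454, 445 and 467 CPM in culture. It rose 2.42-fold in controls (log2 1.28, SE 0.09, FDR = 1.48e-07) and 2.10-fold in deleted libraries (log2 1.07, SE 0.07). *Dhcr7*, the reductase of the last step of one branch, whose loss causes Smith-Lemli-Opitz syndrome, rose 1.81-fold in controls and 1.84-fold in deleted libraries. *Tm7sf2*, a sterol C14 reductase, rose 1.43-fold in controls (FDR = 0.00200), and its span overlaps *Vps51*. *Ebp*, the sterol isomerase, was at 9.21 ± 1.57 CPM in control cortex and 9.55 ± 0.593 CPM in control culture (SD, n = 3 each). Its log2 difference was 0.05 (95% interval -0.34 to 0.44), so a rise like that of its neighbours in the pathway lay outside the interval.

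**Figure D3:**
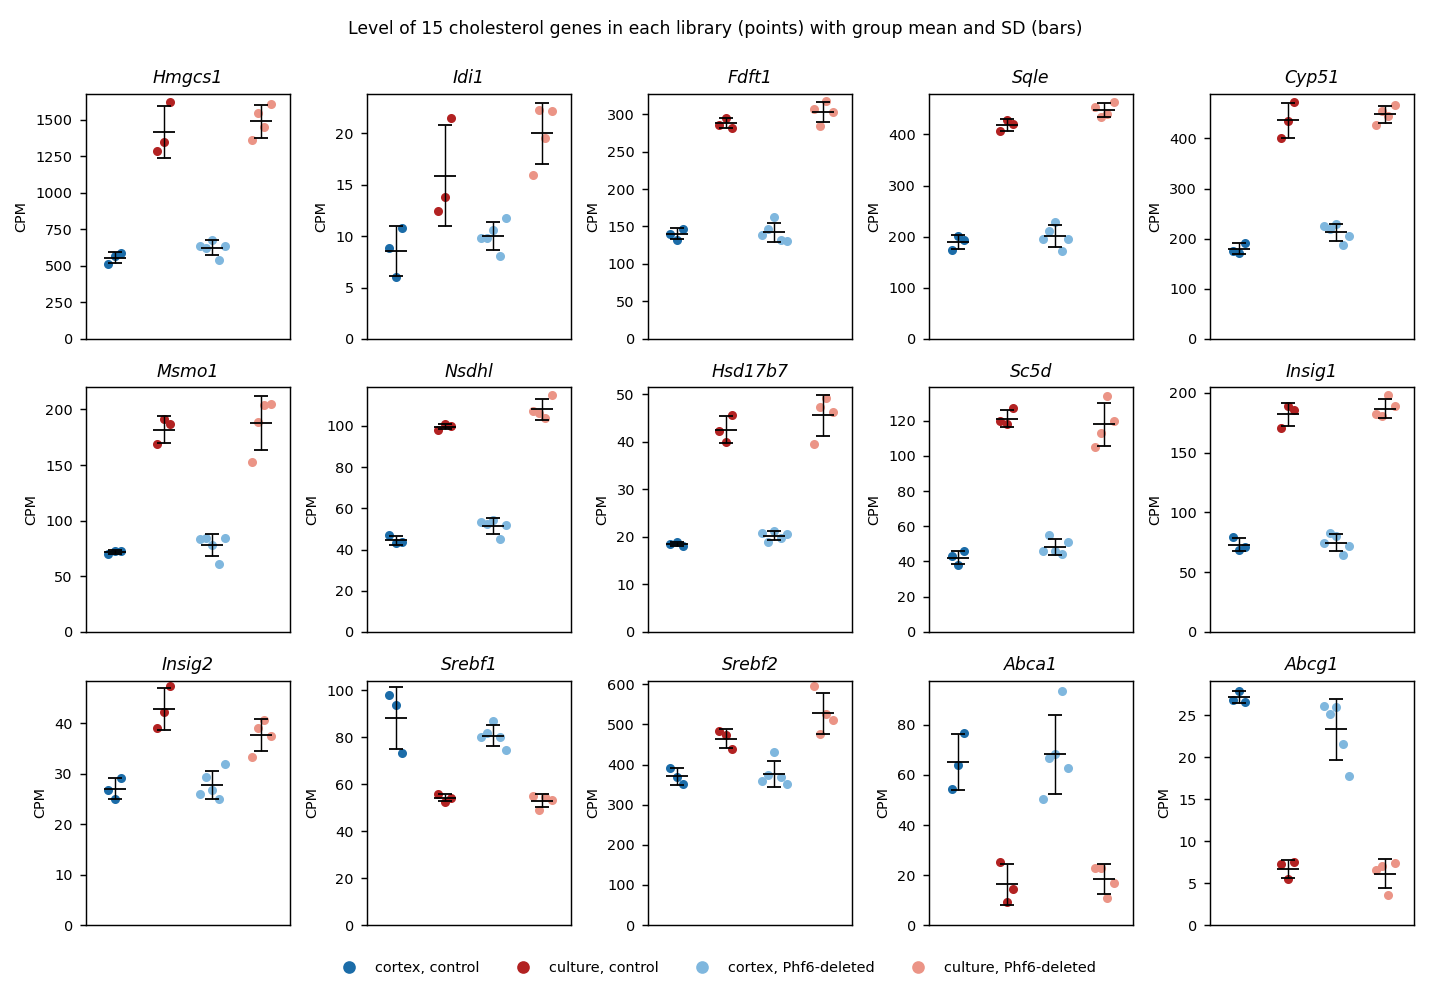
Level of 15 of the genes in each of the 15 libraries, in CPM on linear axes from 0 (points, 1 per library), with the group mean and SD (bars). For the enzymes shown and for *Insig1*, *Insig2* and *Srebf2* the culture libraries (red) lie above the cortex libraries (blue) in both genotypes. For *Srebf1*, *Abca1* and *Abcg1* they lie below.

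The regulators did not share a direction. *Insig1*, itself an SREBP target whose protein retains SCAP (Entrez 231070, chromosome 5, 28071412 to 28078662), held 79.1, 68.7 and 71.5 CPM in control cortex and 171, 189 and 186 CPM in control culture. Deleted cortices gave 74.5, 82.6, 80.3, 64.5 and 72.1 CPM and deleted cultures 182, 181, 198 and 189 CPM. The rise was 2.48-fold in controls (log2 1.31, SE 0.09, FDR = 1.42e-07) and 2.50-fold in deleted libraries. *Insig2*, its paralogue, which is not induced in the same way by SREBP in most cells, rose less, from 27 ± 2.12 to 42.8 ± 4.17 CPM (SD, n = 3 each), or 1.58-fold (FDR = 0.000288).

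The SREBP genes themselves moved in opposite directions. *Srebf2*, whose product chiefly drives cholesterol genes, held 392, 368 and 351 CPM in control cortex and 484, 474 and 438 CPM in control culture. Its rise was 1.25-fold (log2 0.33, SE 0.08, FDR = 0.00333), and it was no longer called when libraries were scaled by their totals alone (log2 0.19, FDR = 0.0646). *Srebf1*, whose products chiefly drive fatty acid genes, held 97.8, 93.8 and 73.3 CPM in control cortex and 55.9, 52.6 and 54.3 CPM in control culture. It fell in controls (log2 -0.70, SE 0.11, FDR = 0.000139) and in deleted libraries (log2 -0.61, SE 0.06, FDR = 4.86e-06), with every culture below every cortex. The count covers all *Srebf1* transcripts together, and the gene's span overlaps *Rai1*. *Scap*, the escort of the SREBP precursors, was at 109 ± 5.70 CPM in control cortex and 113 ± 1.52 CPM in control culture (SD, n = 3 each). Its log2 difference was 0.05 (95% interval -0.12 to 0.23) in controls and 0.17 (FDR = 0.0480) in deleted libraries, where the groups overlapped and the call was lost when any of 7 of the 9 libraries was left out.

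The exporters went the other way. *Abcg1*, which loads sterol onto lipoprotein particles (Entrez 11307, chromosome 17, 31057694 to 31117984), held 26.8, 27.9 and 26.6 CPM in control cortex and 7.23, 5.49 and 7.46 CPM in control culture. Deleted cortices held 26.1, 25.1, 26, 21.5 and 17.7 CPM and deleted cultures 6.50, 7.03, 3.63 and 7.35 CPM. The level in culture was thus 0.248 of that in cortex in controls (log2 -2.01, SE 0.15, FDR = 3.85e-07) and 0.265 in deleted libraries (log2 -1.91, SE 0.19).

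*Abca1*, which passes sterol to lipid-poor apolipoproteins, was lower to a like extent but scattered more. It held 54.5, 63.8 and 76.9 CPM in control cortex and 25.2, 9.27 and 14.6 CPM in control culture, with no overlap. In deleted libraries it held 50.3, 66.9, 68.4, 93.5 and 62.6 CPM in cortex and 23.0, 23.0, 10.9 and 16.7 CPM in culture. The log2 difference was -1.99 in controls (SE 0.38, FDR = 0.00774) and -1.89 in deleted libraries (SE 0.24, FDR = 6.98e-05). Without control culture replicate 3 the control value was -1.89 and missed the threshold (FDR = 0.0506). The highest of the deleted cortices was replicate 4, which also had the highest endothelial, meningeal and microglial marker sums among the cortices, and without it the deleted difference was -1.75. *Abcg1* was not high in that replicate, at 21.5 CPM against 17.7 to 27.9 CPM in the other cortices. Endothelial, microglial and glial markers were lower in culture, as given above, alongside both exporters. The part of these cell types in the level of either exporter was not tested. *Stard4*, which carries sterol between membranes inside the cell and is itself an SREBP target, followed the enzymes instead and rose 2.09-fold in controls and 1.93-fold in deleted libraries.

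The levels of different genes were compared after division by gene length (CPM per kb). In control cortex *Hmgcs1* was highest at 170 ± 11.8 CPM per kb (SD, n = 3), followed by *Srebf2* at 81.1 ± 4.52 and *Sqle* at 69.0 ± 4.95 CPM per kb. *Idi1* was lowest at 2.98 ± 0.846 CPM per kb, below *Hsd17b7* at 4.05 ± 0.104 CPM per kb. Of the 25 neighbouring pairs in this order, 15 overlapped in their libraries, so much of the middle of the order is not resolved. In control culture *Hmgcs1* stood at 433 ± 54.2 CPM per kb and *Sqle* moved to second place at 152 ± 4.27 CPM per kb, above *Srebf2* at 102 ± 5.28 CPM per kb and without overlap. The exporters dropped to the last places, with *Abca1* at 1.59 ± 0.788 and *Abcg1* at 1.16 ± 0.185 CPM per kb.

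**Figure D4:**
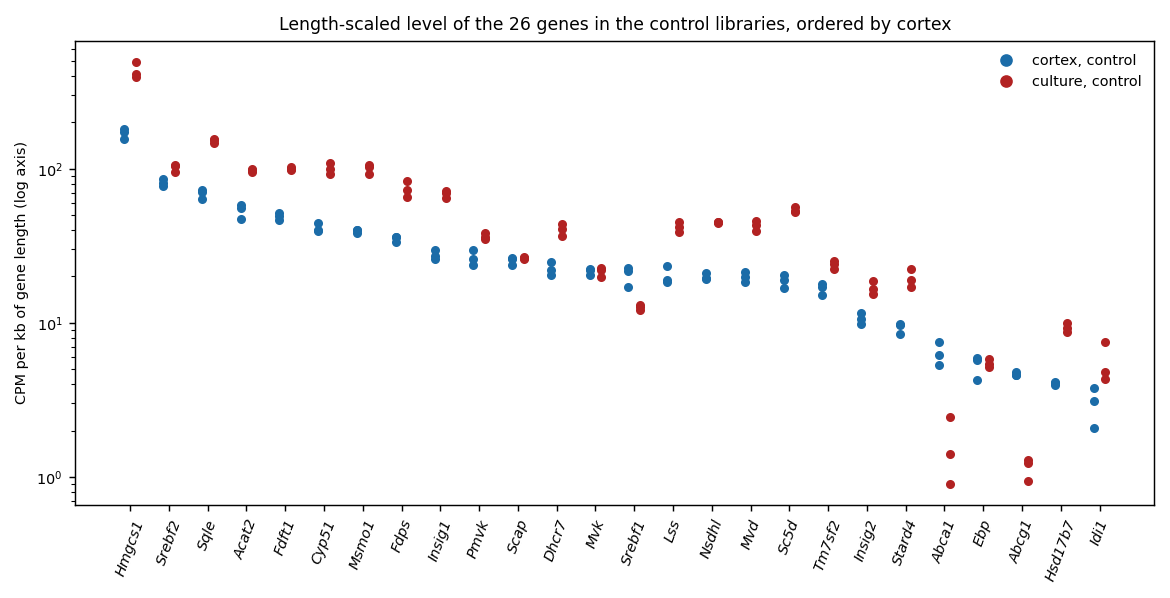
Level of the 26 genes per kb of gene length in the 3 control cortices and the 3 control cultures (points, 1 per library), on a log axis in CPM per kb, with genes ordered by their mean in cortex. Culture points stand above cortex points for most genes, meet them at *Scap*, *Mvk* and *Ebp*, and stand below them at *Srebf1*, *Abca1* and *Abcg1*.

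Neighbouring pathways were followed with 5 further lists of genes outside the 26. Of 16 genes for fatty acid synthesis and desaturation that SREBPs are known to act on, 11 were higher in control cultures and 0 lower, with a median log2 fold change of 0.61 (24.7% and 26.4% of all genes were higher and lower). Examples were *Scd1*, the stearoyl-CoA desaturase (24.9 ± 1.91 to 66.1 ± 5.13 CPM, SD, n = 3 each, FDR = 3.56e-07), and *Elovl6*, a fatty acid elongase (108 ± 10.7 to 250 ± 15.2 CPM, FDR = 3.79e-07). In deleted libraries 13 of these 16 were higher and 0 lower, against 28% and 31.1% of all genes.

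Of 10 genes for SREBP cleavage and traffic, 3 were higher and 2 lower in control cultures, near the shares of all genes (24.7% and 26.4%). In deleted libraries 7 of the 10 were higher and 2 lower, against 28% and 31.1% of all genes, so the count of higher genes differed between the comparisons. In controls *Mbtps2*, the site-2 protease that releases SREBP, showed the largest difference of the list (log2 1.32, SE 0.10, FDR = 4.80e-07). *Rnf139* (log2 0.73), a ligase of the endoplasmic reticulum, and *Sec23a* (log2 0.47) were higher too. *Sec23b*, a coat protein of transport vesicles like *Sec23a*, was lower (log2 -0.64, FDR = 0.000193). Of 10 tested genes of the LXR and oxysterol list, 1 was higher and 4 lower, with a median of -0.34, beside 24.7% and 26.4% of all genes. The higher gene was *Cyp7b1*, an oxysterol hydroxylase (log2 1.46, SE 0.23, FDR = 0.000150), and among the lower genes were the LXR genes *Nr1h2* (log2 -0.49, FDR = 0.00118) and *Nr1h3* (log2 -1.31, FDR = 0.0291).

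A side branch of the pathway feeds dolichol and protein prenylation. Of its 14 genes 3 were higher, 3 lower and 8 not called in control cultures, with a median of 0.08, again near the shares of all genes (24.7% and 26.4%). *Nus1* (log2 0.71) and *Ggps1* (log2 0.66), which belong to enzymes that lengthen isoprenoid chains, were higher. *Dhdds* (log2 -0.32), the partner of *Nus1* in one such enzyme, was lower. Of 18 genes for sterol uptake, transport and storage, 6 were higher and 3 lower, with a median of 0.04, where 24.7% and 26.4% of all genes were. The strongest tests belonged to *Osbpl8* (log2 1.03) and *Gramd1b* (log2 1.12), which move lipid between the endoplasmic reticulum and the plasma membrane, and to the lipoprotein receptor gene *Vldlr* (log2 0.69).

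Loss of PHF6 was then examined within each setting, with litter as a term. In E15.5 cortex none of the 26 genes was called, against 0.386% of the 14750 genes tested, and at an unadjusted p under 0.05 there were 2 (*Cyp51* and *Nsdhl*), against 10.5% of all genes. DESeq2 and limma called 0 of the 26 as well. The median log2 fold change of the 26 genes was 0.05, and 25 of the 95% intervals lay within -0.5 to 0.5. Deleted and control libraries did not overlap for 1 gene, *Abcg1*, against 5.02% of genes tested. Its log2 fold change was -0.22 (SE 0.11, FDR = 0.486).

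The lowest p in the cortex belonged to *Cyp51*, with control values of 175, 171 and 192 CPM and deleted values of 225, 220, 229, 187 and 206 CPM. Its level was higher in the deleted foetuses in 3 of 3 litters, and 1 deleted library overlapped the controls. The log2 fold change was 0.24 (SE 0.08, FDR = 0.249 by edgeR). *Nsdhl* followed, with a log2 fold change of 0.21 (SE 0.08, FDR = 0.334 by edgeR) and a higher level in 3 of 3 litters. Deleted replicate 4 held the lowest level of the 5 deleted cortices for 11 of the 18 enzymes and the highest for none. Without it, 6 of the 26 genes had an unadjusted p under 0.05 (*Hmgcs1*, *Idi1*, *Cyp51*, *Msmo1*, *Nsdhl* and *Sc5d*, all with positive log2 fold changes). The share of all genes under that p in this fit was not counted. None of the 26 passed the adjustment, the lowest FDR being 0.0922 for *Cyp51* by edgeR. Leaving out the deleted library that was lowest for most enzymes moves their fold changes upward by construction. No effect of genotype is therefore read from these 6 genes.

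In E16.5 neurons none of the 26 genes was called either, against 0.273% of the 13909 genes tested, and 2 (*Idi1* and *Msmo1*) had an unadjusted p under 0.05, against 10.3% of all genes. DESeq2 and limma again called 0 of the 26. The median log2 fold change was 0.06, and 23 of the 95% intervals lay within -0.5 to 0.5. *Sqle* and *Nsdhl* did not overlap between genotypes, against 7.23% of genes tested, with log2 fold changes of 0.09 and 0.12.

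*Idi1* gave the lowest p. Its control cultures held 12.4, 13.8 and 21.5 CPM and its deleted cultures 16.0, 22.3, 19.6 and 22.2 CPM, so the groups overlapped through control replicate 3. Within litters the deleted culture was higher in 3 of 3, by log2 differences of 0.85, 0.51 and 0.04. The fitted log2 fold change was 0.46 (SE 0.14, FDR = 0.230 by edgeR). This value depended on litters 4 and 6, and its call also on the filter. Without control replicate 1 it was 0.27 (FDR = 0.638 by edgeR), and without deleted replicate 2, its litter 4 partner, also 0.27 (FDR = 0.648 by edgeR). Without control replicate 3 it was 0.69 (FDR = 0.00167), without deleted replicate 4 it was 0.68 (FDR = 0.00830), and with no filter on low counts it was 0.46 (FDR = 0.0176). These 2 libraries were the pair of litter 6, so with litter as a term either omission removes the same within-litter difference. Over all genes these fits called 494, 383 and 297, in that order, against 38 in the main fit. *Hmgcs1* was called as well without control replicate 3 (log2 0.18, FDR = 0.0426). *Msmo1* had a log2 fold change of 0.13 (SE 0.06, FDR = 0.424 by edgeR), with 169, 191 and 187 CPM in control and 153, 189, 204 and 205 CPM in deleted cultures.

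**Figure D5:**
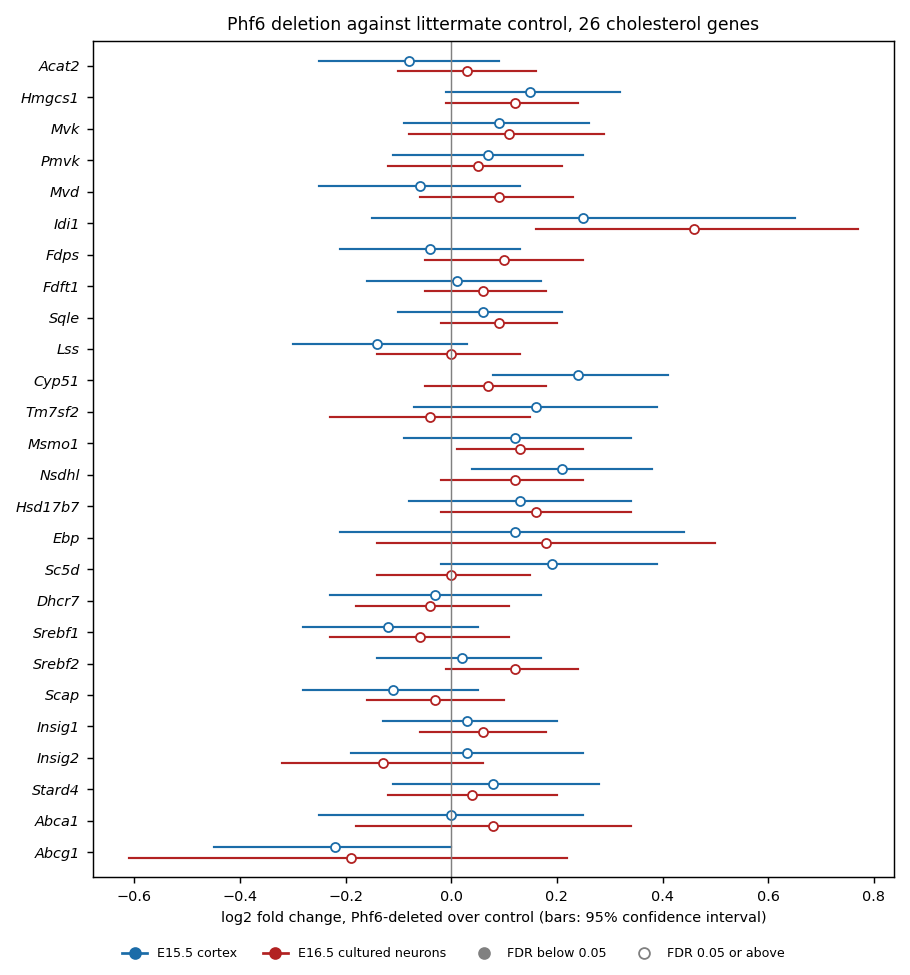
Difference between *Phf6*-deleted and control libraries for the 26 genes, as log2 fold change (points, positive where higher in deleted) with 95% confidence interval (bars), in E15.5 cortex (5 against 3) and E16.5 cultured neurons (4 against 3). All points are open, as none had FDR below 0.05, and most intervals span 0.

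Whether the effect of the deletion differed between culture and cortex was tested as an interaction over all 15 libraries. It was called for none of the 26 genes, against 0.0133% of the 15001 genes tested (2 genes), and 0 of the 26 had an unadjusted p under 0.05 by edgeR, against 5.19% of all genes. DESeq2 and limma also called 0. The smallest p was that of *Cyp51* (log2 difference -0.18, 95% interval -0.41 to 0.04, FDR = 0.954 by edgeR). The further lists gave 0 calls for genotype in both settings and 0 for the interaction. For *Sc5d*, the gene with the largest rise in control cultures, the 95% interval of the log2 difference between culture and cortex began at 1.32 in controls. That of its genotype effect ended at 0.39 in cortex and 0.15 in neurons. *Sc5d* was picked for that rise, so its separation does not stand for the other genes. Not every gene was so separated. The control culture interval met a genotype interval, in cortex, neurons or both, at *Mvk*, *Pmvk*, *Tm7sf2*, *Ebp*, *Srebf2* and *Scap*. For *Idi1* the interval ran from 0.33 to 1.44 for culture against cortex in controls and from 0.16 to 0.77 for genotype in neurons.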

How the data were processed

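RNA was sequenced as polyA RNA with a stranded TruSeq kit in 15 libraries. The deposited files hold counts per Entrez gene, which the authors obtained from read pairs aligned to mm10 with Rsubread and assigned to genes by featureCounts on its inbuilt RefSeq models. They are not normalized, and the strand setting is not given in the sources used here. All 15 sample files equalled their column of the series table. The deposited gene lengths (a unit other than counts) were used for CPM per kb. Identifiers were matched to RefSeq symbols of GRCm38.p6 (875 of 26150 did not match), and 835 pseudogenes, 35 ribosomal RNA genes and 1273 genes with predicted names were removed. Rows without an identifier held 0.349% to 0.605% of counts and were left out.

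Genes were filtered with filterByExpr, scaled by TMM and tested with robust edgeR 4.0.16 quasi-likelihood fits (R 4.3.3), over the libraries of the comparison alone, with litter as a term for genotype and the interaction. Adjustment followed Benjamini and Hochberg over all genes tested. The intervals are 95% intervals of the fit. limma 3.58.1 (limma-trend) and DESeq2 1.42.0 were alternatives beside other scalings, filters, blocks and left-out libraries. The main edgeR fit of each comparison was run on simulated data, and the alternatives were not. Litters follow the labels, each library came from 1 foetus by the study's account, and litter 7 has no control. No replicate pair agreed within sampling noise (chi-square per degree of freedom at least 7.00).

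The 26 genes, the further lists and the tests were chosen with earlier results of these data known. Values per library are given for the 10 genes of lowest p in control cultures against control cortex, the 2 of lowest p in each genotype comparison, and genes needed to describe a role; genes outside the 26 are at most 4 a list, by lowest p. *Lss*, *Tm7sf2*, *Fdft1*, *Srebf1* and *Srebf2* overlap other counted genes. Some single genes are not reported on here. Protein sequences were not used here.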

Additional observations from a re-analysis of the deposited data

Results flagged for a closer look

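Levels of each of the 26 genes were examined for a library far from the others in the 2 groups of more than 3 libraries (52 tests), and 3 stood apart, where chance gives about 1 in 20. *Msmo1* in deleted cortex replicate 4 was at 61.2 CPM, with the nearest library at 78.4 CPM and the highest at 84.9 CPM. *Nsdhl* in the same library was at 44.9 CPM, with the others at 51.9 to 54.3 CPM. *Srebf2* in deleted cortex replicate 3 was at 432 CPM, with the others at 351 to 373 CPM. Deleted cortex replicate 4 also had the highest endothelial, meningeal and microglial marker sums of the 8 cortices, and the part of these in its lower enzyme levels was not tested.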

How the results depend on the processing

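Of 598 values for single genes in the culture comparisons under alternative settings, 582 kept direction and side of the threshold, 6 were no longer called, 1 became called and 9 changed sign (fits with 1 library left out are entered by their lowest and highest value). The sign changes concerned genes that were not called and lay near 0. *Mvk* in controls moved from -0.01 to 0.01 with DESeq2 size factors and in the DESeq2 test, 0.02 with litter as a random block and from -0.04 to 0.06 with 1 library left out. With library totals only it was -0.05 in deleted libraries, *Ebp* was -0.09 in controls (and -0.09 to 0.13 with 1 library left out) and -0.01 in deleted libraries, and *Scap* was -0.08 in controls. This scaling moved the median of all genes to -0.17 in controls and -0.19 in deleted libraries, and the share of higher genes among all called from 48.4% to 33.0% and from 47.4% to 30.6%, while the median of the 26 genes was 0.82 in both. With a log2 fold change of at least 1 also required, 15 genes were called in controls (13 higher) and 14 in deleted libraries (12 higher). The share of all genes that met both conditions was not counted. Leaving out 1 library gave 22 to 23 calls in either culture comparison, 0 in cortex genotype, 0 in the interaction and 0 to 2 in neuron genotype. Without a filter on low counts neuron genotype gave 1 call (*Idi1*).

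Replicate numbers did not pair the libraries throughout: cortex replicates 1 and 2 were littermates across genotypes, the other same-numbered libraries were not, and correlations of same-numbered deviations ran from -0.224 to 0.213. With the replicate number as a block, the culture comparisons gave 23 and 22 calls and genotype 0 in both settings, *Msmo1* in neurons turned to -0.01, and *Scap* in deleted libraries was not called (0.14, FDR = 0.161). Without litter, 0 of the 26 genes were called for genotype in either setting. *Idi1* in cortex ran from -0.01 to 0.48 with 1 library left out. Summing littermates gave 22 calls in deleted libraries. No block could be fitted for the interaction beside litter. Over all genes, DESeq2 called 199 for genotype in cortex and the fit without litter 1, against 57, and in neurons 62 and 1, against 38, with 297 when no filter was used. All p-values rest on 3 to 5 libraries a group. Leaving the 26 genes out of the scaling, added after seeing the data, gave 23 calls in both culture comparisons.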
